A study of Mus musculus with 9 samples.

Results

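The comparison is between MPTP-treated mice that had a running wheel and MPTP-treated mice that had none. It used 6 of the 9 libraries of the series and the 15997 of 55335 genes that averaged 0.5 FPKM or more over the 9 libraries (a level corrected for gene length and library size). MPTP mice (3 libraries) were injected intraperitoneally with MPTP-HCl in saline at 20 mg/kg, 2 times a week for 5 weeks. Running mice (3 libraries) had the same injections and, from the first one on, 2 months of voluntary wheel exercise. Vehicle mice (3 libraries) had saline 2 times a week for 5 weeks and served here as the reference level, so every mouse in the comparison itself carried the toxin. The tissue was substantia nigra of 3 mice per group, which implies 1 mouse per library without stating it, and a p-value then covers only the spread among the libraries at hand. Strain, age, sex, the hour of dissection, and whether the MPTP mice had a locked wheel were not given in the sources used here.

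MPTP is turned by glial monoamine oxidase B into a toxic cation that the dopamine transporter carries into dopaminergic neurons, where it blocks complex I of the respiratory chain. Around the dying neurons, microglia, astrocytes and the cells of the blood vessels take on inflammatory gene programmes. Among these are the interferon-induced genes and the major histocompatibility complex (MHC), which shows peptides to T cells. Physical exercise is known for its links to brain growth factors, to blood vessel growth, and to stress hormones and neuronal activity.

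No gene passed an adjusted p of 0.05 between running and MPTP mice (limma, Benjamini-Hochberg over 15997 genes), and the smallest adjusted p was 0.082. All differences below are therefore described with values and with the unadjusted limma p, and none is called a change. At an unadjusted p under 0.05, 462 genes (2.89%) were lower and 177 (1.11%) were higher in running mice (3.99% in either direction), and after quantile normalization this split was 358 lower to 255 higher. For 858 genes (5.36%) all 3 running libraries lay below all 3 MPTP libraries, and for 425 genes (2.66%) they lay above (8.02% in all). The median log2 fold change of all tested genes, on the log2(FPKM + 1) scale that understates the difference of low genes, was -0.01, with 54.3% below 0 and 45.7% above. Genes of the mitochondrial genome took 29.8% to 32.0% of all FPKM, and the deepest library was 1.21 times as deep as the shallowest, as judged from the smallest steps in the table. Each library held 13413 to 13965 genes at 1 FPKM or more.

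The libraries differed within groups in markers of dopaminergic neurons and of brain position. Slc6a3, the dopamine transporter that defines nigral dopaminergic neurons, stood at 2.75, 0.0377 and 14.4 FPKM in the 3 MPTP libraries, at 0.149, 0 and 10.6 in the 3 running libraries, and at 3.40, 1.41 and 10.8 in the vehicle libraries. It was thus at or near 0 in MPTP replicate 2 and in running replicates 1 and 2, so these libraries do not carry this defining transcript at the level of the others. Slc18a2, the vesicular monoamine transporter, and Ddc, the enzyme that makes dopamine, did not follow it in running replicate 2. Slc18a2 stood at 7.44, 1.46 and 10.7 FPKM in MPTP and at 5.09, 9.64 and 7.67 in running libraries, and Ddc at 7.55, 2.48 and 11.9 against 6.39, 8.20 and 10.2 FPKM. Summed over the dopaminergic list, MPTP libraries held 111, 59.1 and 131 FPKM and running libraries 65.4, 114 and 108, so MPTP replicate 2 and running replicate 1 were the low ones. Th, tyrosine hydroxylase, stood at 5.93, 1.64 and 12.5 FPKM in MPTP and at 2.66, 5.35 and 6.69 in running libraries. None of the 4 genes differed beyond this spread in an exact two-sided permutation test over the 20 splits of 6 libraries, whose smallest p is 0.1 (Slc6a3, p = 0.6, log2 difference -0.72; Th, p = 0.9, -0.16; Slc18a2, p = 0.8, 0.40; Ddc, p = 0.8, 0.33). The first 2 differences were above 0, at 0.27 and 0.40, without MPTP replicate 3, and the last 2 were below 0, at -0.27 and -0.20, without MPTP replicate 2. Of 18 tested dopaminergic genes, 11 were lower and 7 higher, with none at an unadjusted p under 0.05. Hox genes, position markers of the hindbrain, summed to 31.5 FPKM in running replicate 2 and to 0 in running replicate 3, against 0.0831 to 7.75 in MPTP libraries. Genes of serotonergic, noradrenergic and cholinergic neurons summed to 34.1, 64.9 and 36.9 FPKM in running and to 49.2, 23.1 and 36.9 in MPTP libraries. Running replicate 2, with Slc6a3 at 0, was thus the highest running library for both lists. The cause of these differences, and the part that they have in the values below, was not tested. In bulk tissue, fewer cells of a type and less RNA per cell cannot be told apart.

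Igfbp2, which codes for an insulin-like growth factor (IGF) binding protein made by meninges, choroid plexus and astrocytes, had the smallest p of all genes. The gene lies on chromosome 1 from 72824503 to 72852474 (plus strand, GRCm38, GENCODE M21). It stood at 26.6, 26.8 and 24.0 FPKM in MPTP libraries and at 14.6, 15.2 and 14.4 in running libraries. The groups were far apart, and the running libraries lay just above the vehicle libraries, which stood at 13.1, 14.1 and 12.7 FPKM. The log2 fold change was -0.77 (SE 0.08, limma adjusted p = 0.0820), so it did not pass in the fit described here. It passed at 0.0328 when only genes averaging 5 FPKM or more were tested, and in 4 other settings: without a filter (0.0305), after rescaling to equal sums (0.0476), with array weights (0.0420) and without MPTP replicate 1 (0.0364).

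**Figure D1:**
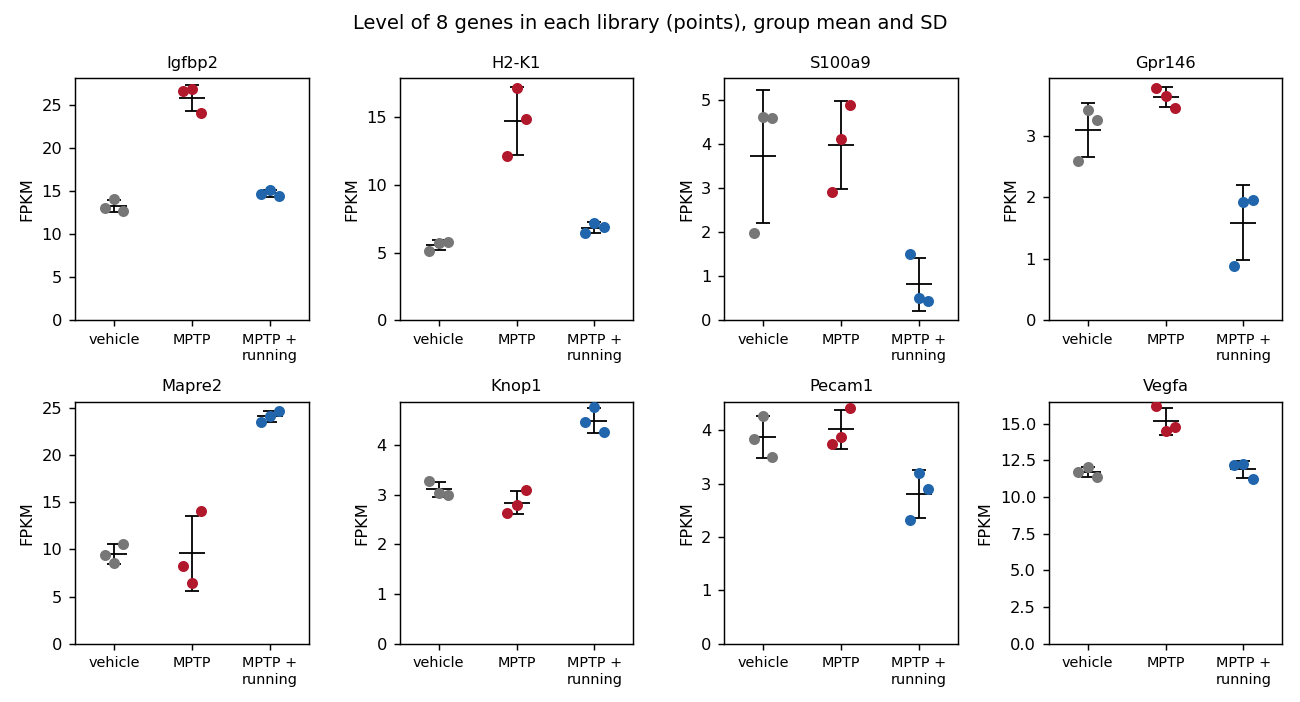
FPKM of 8 genes (vertical axes) in each vehicle, MPTP and running library (points), with the group mean and SD. Igfbp2, H2-K1 and Vegfa of running libraries sit near the vehicle level, S100a9, Gpr146 and Pecam1 sit below both other groups, and Mapre2 and Knop1 sit above both.

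The other genes with the smallest p among those lower in running mice came from several functions. H2-K1, the classical MHC class I heavy chain of chromosome 17 (33996017 to 34000347, minus strand), stood at 12.1, 17.2 and 14.9 FPKM in MPTP and at 6.41, 7.20 and 6.88 in running libraries (log2 fold change -0.996, SE 0.12). Adprhl2, an enzyme that removes ADP-ribose from serine residues, stood at 5.81, 7.01 and 5.99 against 3.44, 3.62 and 4.10 FPKM (-0.62, SE 0.11). Its vehicle libraries, at 5.07, 6.02 and 4.90, were also above all running libraries. Gpr146, an orphan G protein-coupled receptor, showed the same order, with 3.78, 3.65 and 3.46 FPKM in MPTP, 0.878, 1.93 and 1.96 in running and 2.59, 3.43 and 3.27 in vehicle libraries (-0.87, SE 0.18). Cux2, a homeobox factor of upper cortical layers, stood at 5.69, 6.52 and 5.27 against 4.05, 3.88 and 3.79 FPKM, with vehicle at 5.12, 5.97 and 5.56. So running libraries were the lowest of all 9 for these last 3 genes, which held for 260 of all tested genes, while 130 were highest in running mice.

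Whrn, which codes for the scaffold protein whirlin, stood at 6.32, 6.54 and 7.58 FPKM in MPTP and at 4.19, 4.51 and 3.97 in running libraries. Perp, a membrane protein of cell junctions and a p53 target, stood at 4.12, 3.18 and 3.999 against 2.25, 1.87 and 2.47 FPKM, with vehicle at 1.72 to 1.97. Bmp6, a bone morphogenetic protein that endothelial cells secrete, stood at 2.92, 2.95 and 3.93 against 1.92, 1.55 and 2.003 FPKM. None of these groups overlapped, and their limma adjusted p ran from 0.773 to 0.857. A second annotated copy of Myl12b, a myosin light chain, also belonged here (log2 fold change -0.62), but all of its 1201 exonic bases lie in the main copy, so its reads cannot be assigned with certainty. Among the largest differences, Chmp3, a subunit of the membrane-cutting ESCRT-III complex, stood at 23.1, 28.6 and 20.8 FPKM in MPTP and at 8.22, 11.3 and 8.57 in running libraries. Its vehicle libraries were split between 20.7 in one and 8.44 and 6.94 in the others. Ppp1r26, a regulatory subunit of protein phosphatase 1, was as uneven, at 4.54, 4.88 and 5.32 against 0.699, 0.552 and 2.64 FPKM, with vehicle from 0.588 to 5.14. Bpifb9b stood at 7.96, 0.00485 and 4.07 FPKM in MPTP and was listed at 0 in all 3 running libraries. Its vehicle libraries were also low, at 0.0437, 0 and 0.361 FPKM, so only MPTP replicates 1 and 3 carried it above the filter.

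**Figure D2:**
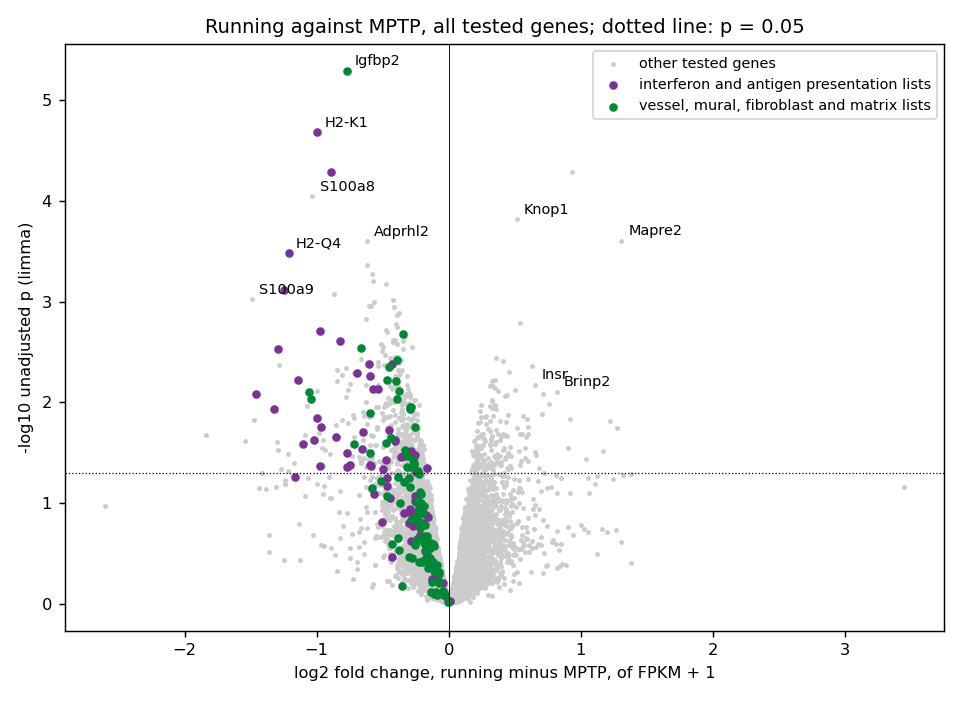
Log2 fold change of running minus MPTP libraries on FPKM + 1 (horizontal) against -log10 of the unadjusted limma p (vertical) for the 15997 tested genes (grey). The 74 genes of 4 interferon and antigen presentation lists (purple) and the 100 genes of 4 vessel, mural, fibroblast and matrix lists (green) lie almost wholly left of 0, where 54.3% of all genes lie.

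Fewer genes were higher in running mice. Mapre2, which codes for the microtubule plus-end binding protein EB2, stood at 8.22, 6.48 and 14.1 FPKM in MPTP libraries and at 23.5, 24.1 and 24.6 in running libraries. The running libraries were nearly equal and lay above all vehicle libraries, which stood at 9.36, 8.57 and 10.6 FPKM. The log2 fold change was 1.31 (SE 0.22, limma adjusted p = 0.505), and without MPTP replicate 3, the highest of its group, it was 1.59 with an adjusted p of 0.0273. Knop1, a nucleolar protein gene, stood at 2.64, 2.79 and 3.10 against 4.46, 4.76 and 4.25 FPKM, with vehicle at 3.27, 3.04 and 3.003. Of its 5880 exonic bases, 1161 overlap Vps35l, and reads of the 2 genes cannot be told apart without strand. Rpph1, the RNA of ribonuclease P, stood at 0.118, 0.272 and 0.0662 against 1.59, 0.978 and 1.06 FPKM, a noncoding gene named after its values were seen. Insr, the insulin receptor, stood at 2.69, 1.34 and 3.04 in MPTP, at 3.80, 4.43 and 4.17 in running and at 5.35, 4.81 and 5.34 FPKM in vehicle libraries. For Insr the running libraries thus lay between the other groups, with no overlap on either side.

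Brinp2, a neuronal gene induced by bone morphogenetic protein and retinoic acid, stood at 2.25, 2.61 and 2.86 FPKM in MPTP and at 6.65, 3.52 and 6.20 in running libraries (log2 fold change 0.82, SE 0.24). Mapkap1, the Sin1 subunit of the kinase complex mTORC2, stood at 6.23, 5.75 and 6.32 against 7.70, 8.29 and 9.72 FPKM. The groups did not overlap for either gene. Dph2 (diphthamide synthesis), Dpm3 (dolichol-phosphate mannose synthesis), Mrpl32 (mitochondrial ribosome), Trim23 (a ubiquitin ligase), Nsmce2 (a SUMO ligase of the SMC5/6 complex), Zmat1 and Fam162a were the remaining genes of this kind. Their log2 fold changes ran from 0.24 for Nsmce2 to 0.44 for Zmat1. Stac, an adaptor of calcium channels, was carried by 1 library, at 0.922, 3.02 and 1.12 FPKM in running against 0.743, 0.307 and 0.823 in MPTP mice.

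Genes of antigen presentation and of the interferon response were lower in running than in MPTP mice. Over 4 such lists, 73 of 74 tested genes had a log2 fold change below 0, and 41 had an unadjusted p under 0.05 in that direction (55.4%, against 2.89% of all genes) and none in the other. The running libraries lay below all MPTP libraries for 28 of them (37.8%, against 5.36%), and below all vehicle libraries as well for 1. The median log2 fold change was -0.44, against -0.01 over all genes. Part of the lists was known from earlier results of these data to differ between the groups. The comparison of MPTP with vehicle mice shares the MPTP libraries with this one, so the levels of the 3 groups are given side by side.

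In the MHC class I list (heavy chains, the light chain and the peptide loading machinery), 19 of 20 tested genes were lower. The median log2 fold change was -0.42, and 10 genes had an unadjusted p under 0.05 (50%, against 2.89% of all genes). B2m, the light chain that every class I molecule needs, stood at 120, 187 and 163 FPKM in MPTP libraries, at 108, 106 and 91.9 in running libraries and at 72.0, 79.3 and 62.9 in vehicle libraries. The 3 groups did not overlap, and B2m in running mice lay between the others. H2-D1, a classical heavy chain, stood at 30.2, 45.4 and 37.3 against 19.9, 25.4 and 17.2 FPKM (log2 fold change -0.82, SE 0.20). Heavy chain genes of the Q region were also lower. H2-Q4 stood at 4.19, 8.95 and 7.32 against 1.96, 2.60 and 2.25 FPKM, and H2-Q7 at 1.02, 1.45 and 1.60 against 0.157, 0.354 and 0.295 FPKM. Class I heavy chains are near-identical copies, so the split of reads among them is uncertain. Tap1, a subunit of the pump that brings peptides to class I molecules, stood at 0.612, 1.03 and 1.57 against 0.417, 0.374 and 0.414 FPKM.

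The class II list, which marks microglia and macrophages that show peptides to helper T cells, had all 8 tested genes lower. The median was -0.47, and 6 genes had an unadjusted p under 0.05 (75%, against 2.89% of all genes). Leaving out MPTP replicate 2 or 3 or running replicate 1 left 3 such genes. Cd74, the invariant chain that guards the class II groove, stood at 4.15, 5.79 and 6.74 FPKM in MPTP and at 1.37, 2.59 and 1.39 in running libraries. The running level overlapped that of vehicle mice (1.64, 2.72 and 1.16). Ctss, the protease that trims the invariant chain, stood at 59.9, 86.7 and 78.1 against 57.9, 58.1 and 56.7 FPKM, so the lowest MPTP library nearly touched the running libraries. Ciita, the master regulator of class II genes, was under the filter at 0.0715 to 0.142 FPKM in MPTP and 0.0793 to 0.118 in running libraries, which overlap.

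Of the 4 interferon and antigen presentation lists, the median farthest from 0 was that of the interferon-induced GTPases, the Gbp and Irg proteins that attack the vacuoles of intracellular microbes. All 13 were lower in running mice, with a median log2 fold change of -0.96. Of these, 11 had an unadjusted p under 0.05 (84.6%, against 2.89% of all genes). The promoters of these genes carry a known docking site of interferon-activated factors, the interferon-stimulated response element, shown here as GAAANNGAAA on either strand (TTTCNNTTTC when it lies on the other strand, with overlapping matches counted). In the RefSeq promoters of GRCm38.p6, from 250 bases before to 50 after the start, all 9 GTPase genes with an entry held a match. A match was found in 384 of 11003 tested genes with an entry (3.49%), in 13 of 26 antiviral genes and in 5 of 18 MHC class I genes. The windows below, written in the direction of the gene and ending at or before the start, show the matches in capitals for 5 GTPase genes and for the class I light chain.
Gbp2 promoter, chr3:142620564-142620653 (+ strand): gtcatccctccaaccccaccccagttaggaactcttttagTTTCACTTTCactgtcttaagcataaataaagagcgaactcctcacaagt
Gbp7 promoter, chr3:142530243-142530332 (+ strand): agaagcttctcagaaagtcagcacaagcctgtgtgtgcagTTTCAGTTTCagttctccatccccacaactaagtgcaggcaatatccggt
Irgm2 promoter, chr11:58214873-58214962 (+ strand): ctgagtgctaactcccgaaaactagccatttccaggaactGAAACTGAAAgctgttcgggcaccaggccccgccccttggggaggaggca
Igtp promoter, chr11:58199482-58199555 (+ strand): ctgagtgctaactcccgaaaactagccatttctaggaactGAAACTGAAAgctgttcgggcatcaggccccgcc
Tgtp1 promoter, chr11:48992274-48992363 (- strand): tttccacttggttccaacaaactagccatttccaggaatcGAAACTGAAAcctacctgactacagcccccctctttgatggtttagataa
B2m promoter, chr2:122147508-122147597 (+ strand): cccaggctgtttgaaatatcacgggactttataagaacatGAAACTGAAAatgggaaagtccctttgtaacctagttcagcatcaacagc
The match lay from 59 to 50 bases before the start in Gbp2 and from 139 to 130 bases before it in B2m. The windows of Irgm2 and Igtp, neighbours on chromosome 11, differ at few positions. A match is a description of the letters and not a proof of binding.

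The MPTP libraries were far apart for these GTPases. Gbp2 stood at 2.54, 8.53 and 7.42 FPKM in MPTP and at 1.86, 2.11 and 1.95 in running libraries, with vehicle at 1.76, 1.76 and 1.43. Igtp stood at 2.61, 11.3 and 11.02 against 2.63, 3.49 and 2.31 FPKM, and Tgtp1 at 1.68, 7.85 and 8.63 against 1.70, 1.19 and 1.46 FPKM. MPTP replicate 1 was thus at the level of the running libraries, and replicates 2 and 3 were high. The running libraries lay below all MPTP libraries for 3 of the 13 genes (23.1%, against 5.36% of all genes). The list score (mean log2(FPKM + 1)) was 1.26, 2.63 and 2.68 in MPTP, 1.22, 1.35 and 1.18 in running and 1.001, 1.006 and 0.944 in vehicle libraries. Without MPTP replicate 1 the median was -1.42 and all 13 had an unadjusted p under 0.05, and without replicate 2 or 3 it was -0.75 or -0.70 with 4 genes each. Leaving out running replicate 1 or 3 gave 6 genes. Tgtp1 and Tgtp2 are near-identical copies, and the split of reads between them is uncertain.

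Of the other interferon-induced antiviral genes, all 33 tested were lower in running mice, with a median log2 fold change of -0.29. Of these, 14 had an unadjusted p under 0.05 (42.4%, against 2.89% of all genes). The 14 became 24 without MPTP replicate 1, 3 without MPTP replicate 3 or running replicate 1, and 6 without any one of the other MPTP and running libraries. Bst2, the tetherin that holds budding virus at the cell surface, stood at 7.28, 14.6 and 20.7 FPKM in MPTP, at 5.73, 3.52 and 5.27 in running and at 1.79, 2.43 and 2.47 in vehicle libraries. The 3 groups did not overlap. Ifi27 showed the same order, with 19.3, 27.9 and 28.9 FPKM in MPTP, 15.5, 14.5 and 18.7 in running and 10.4, 10.1 and 11.3 in vehicle libraries. Ifit3, which binds viral RNA, stood at 9.31, 19.0 and 28.5 against 9.26, 10.8 and 9.70 FPKM, so that MPTP replicate 1 again lay within the running range. Upstream, Irf7, the transcription factor that amplifies the type I response, stood at 1.02, 2.32 and 2.70 against 0.897, 0.652 and 1.09 FPKM. The groups overlapped through MPTP replicate 1. Of the 17 tested receptors, kinases and transcription factors, 15 were lower. At an unadjusted p under 0.05, 4 were lower (23.5%, against 2.89% of all genes), and none without MPTP replicate 2 or 3. Over the 74 genes of the 4 lists, the 41 with a p under 0.05 became 56 without MPTP replicate 1, 20 and 17 without replicates 2 and 3, 20, 29 and 24 without running replicates 1, 2 and 3, and 26 when only the 6 libraries were fitted. With the endothelial score described below as a covariate, an alternative chosen after seeing the data, 2 of the 74 had such a p, and the log2 fold changes of Gbp7, Tgtp2, Irgm2, Igtp and Ifit3 were above 0, from 0.095 to 0.27. That score does not overlap between the 2 groups, so the group and the score cannot be told apart.

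Blood vessel genes were lower in running than in MPTP mice, with small differences spread over the members. In 4 lists of endothelium, mural cells, fibroblasts and matrix, all 100 tested genes had a log2 fold change below 0 (54.3% of all genes did; 98 under quantile normalization), with a median of -0.23. Of these, 28 had an unadjusted p under 0.05 (28%, against 2.89%). The running libraries lay below all MPTP libraries for 32 (32%, against 5.36%). For 16 they lay below all vehicle libraries as well, and the number of such genes among all tested genes is given above. The 28 became 18 without MPTP replicate 3 or running replicate 1. The summed FPKM of the 36 endothelial and blood-brain barrier genes was 388 to 438 in MPTP, 332 to 365 in running and 362 to 383 in vehicle libraries, and none of them was at 0 in any library.

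Pecam1, an adhesion molecule of endothelial junctions, had the smallest p of its list. It stood at 3.75, 3.88 and 4.42 FPKM in MPTP, at 2.33, 3.20 and 2.89 in running and at 3.85, 4.28 and 3.49 in vehicle libraries (log2 fold change -0.40, SE 0.11). The running libraries were the lowest of all 9. The same held for Cdh5, the cadherin that seals endothelial junctions, at 5.20, 4.19 and 4.51 in MPTP, 3.20, 3.52 and 3.27 in running and 4.26, 5.49 and 4.31 FPKM in vehicle libraries. Cldn5, the main claudin of the blood-brain barrier, stood at 17.9, 18.3 and 16.7 against 13.2, 15.0 and 11.5 FPKM, and its vehicle libraries (12.7, 15.2 and 16.3) overlapped those of running mice. Vwf, the clotting factor stored in endothelium, stood at 1.28, 1.79 and 2.70 against 0.764, 1.10 and 0.843 FPKM. Other barrier genes overlapped between the groups: Mfsd2a, the lipid transporter of brain endothelium, stood at 10.9, 9.96 and 7.55 against 7.18, 13.03 and 7.64 FPKM, and Tjp1, a tight junction scaffold, at 16.6, 12.3 and 15.2 against 13.7, 14.6 and 15.2. In the whole list 36 of 36 were lower, with a median of -0.23. Of these, 13 had an unadjusted p under 0.05 (36.1%, against 2.89% of all genes), and 8 had such a p without MPTP replicate 3.

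Growth factor genes of the vessels were lower on the side of ligand and receptors. Vegfa, the chief endothelial growth factor, stood at 16.2, 14.5 and 14.8 FPKM in MPTP and at 12.2, 12.3 and 11.2 in running libraries (log2 fold change -0.33, SE 0.08). The groups did not overlap, and the running libraries lay at the vehicle level (11.7, 12.03 and 11.4). Its receptors Flt1 and Kdr stood at 6.54, 5.93 and 6.98 against 4.65, 5.65 and 5.10 FPKM, and at 2.39, 2.22 and 2.23 against 1.57, 1.69 and 1.80 FPKM. Tek, the angiopoietin receptor, stood at 4.36, 4.15 and 3.95 against 2.91, 3.64 and 3.12 FPKM. For these 3 receptors the groups did not overlap, while the ligands Angpt1 and Angpt2 did overlap, with log2 fold changes of -0.07 and -0.20. Of the 28 tested genes of the list, 23 were lower, 6 at an unadjusted p under 0.05 (21.4%, against 2.89% of all genes), with a median of -0.11.

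Genes of mural cells, which wrap the vessels, showed the same sign: 19 of 19 tested genes were lower, with a median of -0.22. Of these, 3 had an unadjusted p under 0.05 (15.8%, against 2.89% of all genes), and leaving out MPTP replicate 1 gave 5. Pdgfrb, the receptor that holds pericytes on vessels, stood at 5.16, 4.84 and 4.77 FPKM in MPTP, at 3.35, 3.82 and 3.81 in running and at 4.50, 5.08 and 4.83 in vehicle libraries. Vtn, vitronectin, which brain pericytes secrete, stood at 22.3, 28.5 and 23.9 against 16.7, 19.4 and 17.7 FPKM, with vehicle at 28.6, 29.6 and 24.0. Both were lowest in the running libraries. Acta2, smooth muscle actin, stood at 6.58, 8.14 and 10.4 against 4.66, 5.69 and 5.20 FPKM, while Rgs5, the most abundant pericyte marker named here, overlapped at 30.6, 32.6 and 27.3 against 24.3, 31.5 and 25.7 FPKM. With the endothelial score as a covariate, Acta2, Rgs5 and Vwf had log2 fold changes of 0.33, 0.17 and 0.035, but Vwf is itself part of that score.

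In the list of fibroblasts and meninges, all 22 tested genes were lower, with a median of -0.37. Of these, 7 had an unadjusted p under 0.05 (31.8%, against 2.89% of all genes), and leaving out MPTP replicate 2 gave 4. Igf2, an IGF of meninges and choroid plexus, stood at 14.7, 21.8 and 16.1 FPKM in MPTP and at 9.42, 5.31 and 9.32 in running libraries. Its vehicle libraries were wide, at 8.30, 19.3 and 10.4. Col1a1 and Col1a2, the chains of type I collagen, stood at 2.74, 2.06 and 1.57 against 0.827, 1.08 and 1.24 FPKM and at 2.22, 2.09 and 1.65 against 0.959, 1.34 and 1.16 FPKM. Of 23 basement membrane and matrix genes all were lower, 5 at an unadjusted p under 0.05 (21.7%, against 2.89%), with a median of -0.18. That count was 10 without MPTP replicate 2, 3 without MPTP replicate 1, and 2 without MPTP replicate 3 or running replicate 1. Fn1, fibronectin, stood at 5.65, 6.21 and 6.76 against 3.84, 4.09 and 4.68 FPKM, and Mmp2, a protease of matrix, at 1.04, 1.16 and 1.47 against 0.587, 0.747 and 0.746 FPKM. Running libraries lay below both other groups for these matrix genes.

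Choroid plexus epithelium, which lies in the ventricles outside the nigra, was also marked by lower values. All 20 tested markers were lower in running mice, 9 at an unadjusted p under 0.05 (45%, against 2.89% of all genes), with a median of -0.99. Their summed FPKM was 1111 to 2333 in MPTP, 102 to 1074 in running and 115 to 429 in vehicle libraries. Ttr, transthyretin, the chief secreted product of choroid plexus, stood at 1676, 929 and 2010.5 FPKM in MPTP, at 924, 18.5 and 770 in running and at 32.0, 41.9 and 328 in vehicle libraries. Running replicate 2 was almost free of it, and Wfdc2 was listed at 0 there. Without that library the median was -0.57. The 9 genes became 3 without it or without MPTP replicate 3, 4 without MPTP replicate 1, 16 without MPTP replicate 2 and 15 without running replicate 3. Enpp2, autotaxin, stood at 192, 135 and 212 against 104, 72.4 and 124 FPKM. The choroid plexus score as a covariate in the fit was an alternative chosen after seeing the data. With it, the median of the fibroblast list was -0.51 and that of the endothelial list -0.32. Slc13a4 belongs both to that score and to the fibroblast list, and no score of meninges was fitted. The part of attached choroid plexus and meninges in the values of Igfbp2, Igf2 and the fibroblast genes, which those tissues express, was not tested.

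**Figure D3:**
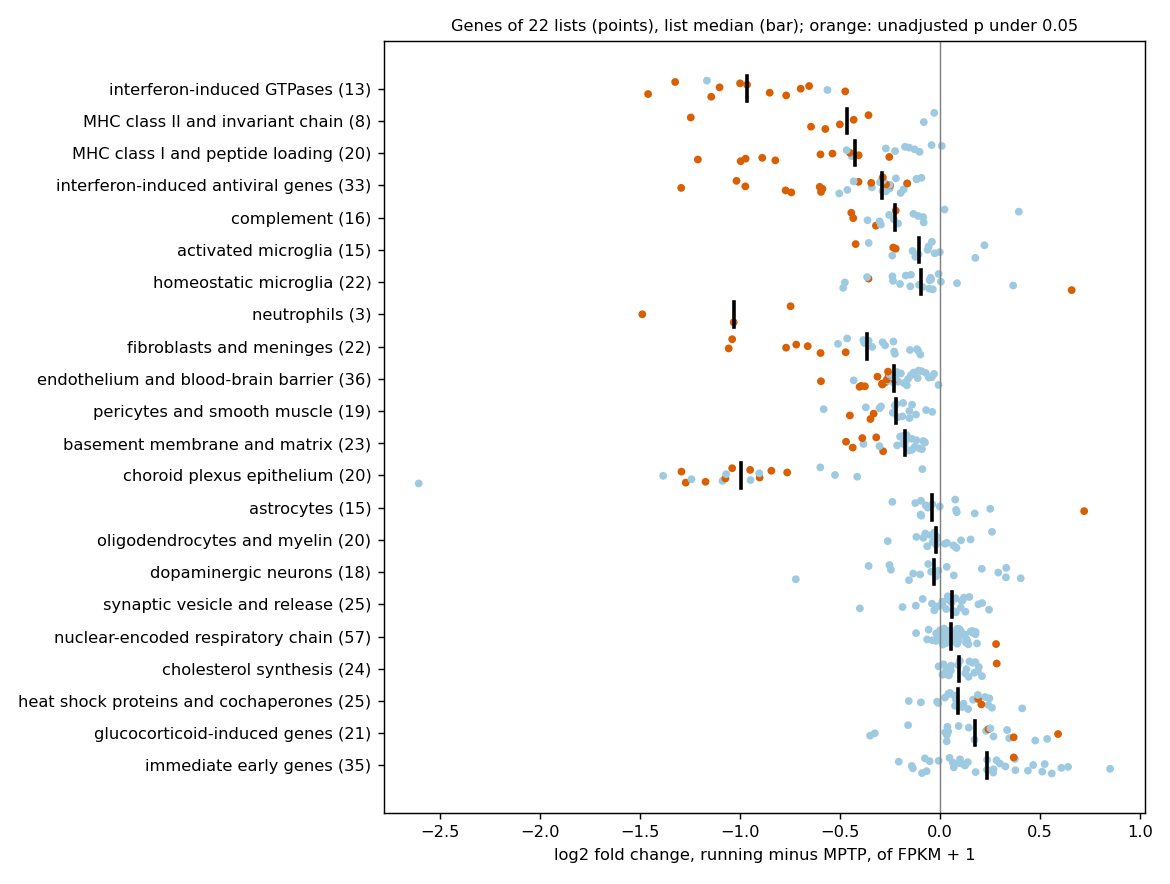
Log2 fold change of running minus MPTP libraries (horizontal) of each tested gene (points) in 22 lists (rows, number of genes in brackets), with the list median as a bar and genes at an unadjusted p under 0.05 in orange. Interferon-induced GTPases, neutrophil genes and choroid plexus genes have medians near -1, the vessel lists lie between -0.37 and -0.18, and heat shock, glucocorticoid-induced and immediate early genes have medians above 0.

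The neutrophil transcripts that passed the filter were lowest in running mice. Only 3 of 10 marker genes passed the filter. For each of the 3 the running libraries lay below all MPTP libraries (against 5.36% of all genes) and below all vehicle libraries. S100a8 and Ngp were under 0.5 FPKM in every running library, so they passed the filter only through the other groups. Their low running level is therefore partly built into the choice of these genes. S100a9 and S100a8, the subunits of calprotectin, stood at 2.91, 4.12 and 4.89 FPKM in MPTP against 1.51, 0.495 and 0.429 in running libraries, and at 1.16, 1.67 and 1.24 against 0.337, 0.128 and 0. Their log2 fold changes were -1.49 (SE 0.30) and -1.03 (SE 0.15), with limma adjusted p of 0.857 and 0.288. Vehicle libraries were not low, with S100a9 at 1.97, 4.61 and 4.59 and S100a8 at 1.22, 1.12 and 0.704 FPKM. Ngp, a granule protein, stood at 0.543, 1.04 and 1.44 against 0.211, 0.160 and 0.152 FPKM. The summed level of the 3 genes was 4.62 to 7.56 FPKM in MPTP, 0.581 to 2.05 in running and 3.77 to 6.95 in vehicle libraries. Below the filter, Lcn2, Camp and Retnlg overlapped between running and MPTP libraries, while Ltf and Mmp8 of running libraries lay below all others. Elane and Mpo, which define immature neutrophils and were also below the filter, did not exceed 0.122 FPKM in any library. Genes of red blood cells, another sign of blood in the tissue, summed to 84.3 to 132 FPKM in MPTP, 69.6 to 155 in running and 94.3 to 518 in vehicle libraries, so those groups overlapped. The part of remaining blood in the neutrophil values was not tested.

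Microglia, the resident macrophages named in the title of the study, had list medians nearer to that of all genes than the interferon genes did. Of 22 homeostatic genes 18 were lower, with a median of -0.10. At an unadjusted p under 0.05 there was 1 in each direction (4.55% each, against 2.89% lower and 1.11% higher of all genes). The 1 in the higher direction was P2ry12, the purinergic receptor of resting microglia, at 5.01, 5.44 and 4.26 FPKM in MPTP and 7.16, 6.27 and 12.5 in running libraries, with vehicle at 7.91, 8.32 and 4.72. The groups did not overlap, but running replicate 3 stood far above the rest. Tmem119, another marker of resident microglia, overlapped at 6.41, 8.54 and 7.03 against 7.10, 6.03 and 7.91 FPKM. Of 15 genes of activated microglia 13 were lower, with a median of -0.11. For 4 of them the running libraries lay below all MPTP libraries (26.7%, against 5.36% of all genes). At an unadjusted p under 0.05, 3 were lower (20%, against 2.89%): the lysosomal proteases Ctsd and Ctsz and the lysozyme gene Lyz2. Ctsd stood at 169, 177 and 177 FPKM in MPTP, 151, 143 and 154 in running and 142, 140 and 142 in vehicle libraries, and the 3 groups did not overlap. Trem2, the receptor needed for the disease-associated state, stood at 1.62, 2.54 and 2.05 against 2.20, 1.72 and 1.91 FPKM, which overlap.

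The complement list, proteins that tag cells and synapses for removal, had 14 of 16 genes lower, 4 at an unadjusted p under 0.05 (25%, against 2.89% of all genes), with a median of -0.23. None had such a p without MPTP replicate 3, 1 without MPTP replicate 2 or running replicate 1 or 2, and 2 without running replicate 3. C1qa, a chain of the initiator C1q, stood at 30.3, 41.4 and 37.1 FPKM in MPTP and at 29.2, 27.7 and 29.0 in running libraries, and the groups came close through MPTP replicate 1. Of 18 tested genes of reactive astrocytes 13 were lower, with a median of -0.17. At an unadjusted p under 0.05, 3 were lower (16.7%, against 2.89%), namely Gbp2, Srgn and Serping1, and for 4 the running libraries lay below all MPTP libraries (22.2%, against 5.36%). The count of 3 became 5 without MPTP replicate 1. Srgn, the proteoglycan serglycin, stood at 3.18, 3.74 and 3.39 against 2.71, 2.65 and 2.24 FPKM, and Serping1, the inhibitor of C1, at 2.67, 4.18 and 3.31 against 2.02, 2.25 and 2.31 FPKM. Serpina3n, a protease inhibitor of that state, was the 1 gene higher at such a p, at 8.02, 7.93 and 8.80 against 8.75, 12.02 and 13.2 FPKM, with running replicate 1 within the MPTP range. In the list of general astrocyte genes 9 of 15 were lower, with a median of -0.04 and only Gja1 at an unadjusted p under 0.05, in the higher direction. Gja1, the gap junction protein of astrocytes, was uneven in MPTP libraries, at 25.8, 13.8 and 8.08 against 23.6, 24.8 and 24.4 FPKM.

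**Figure D4:**
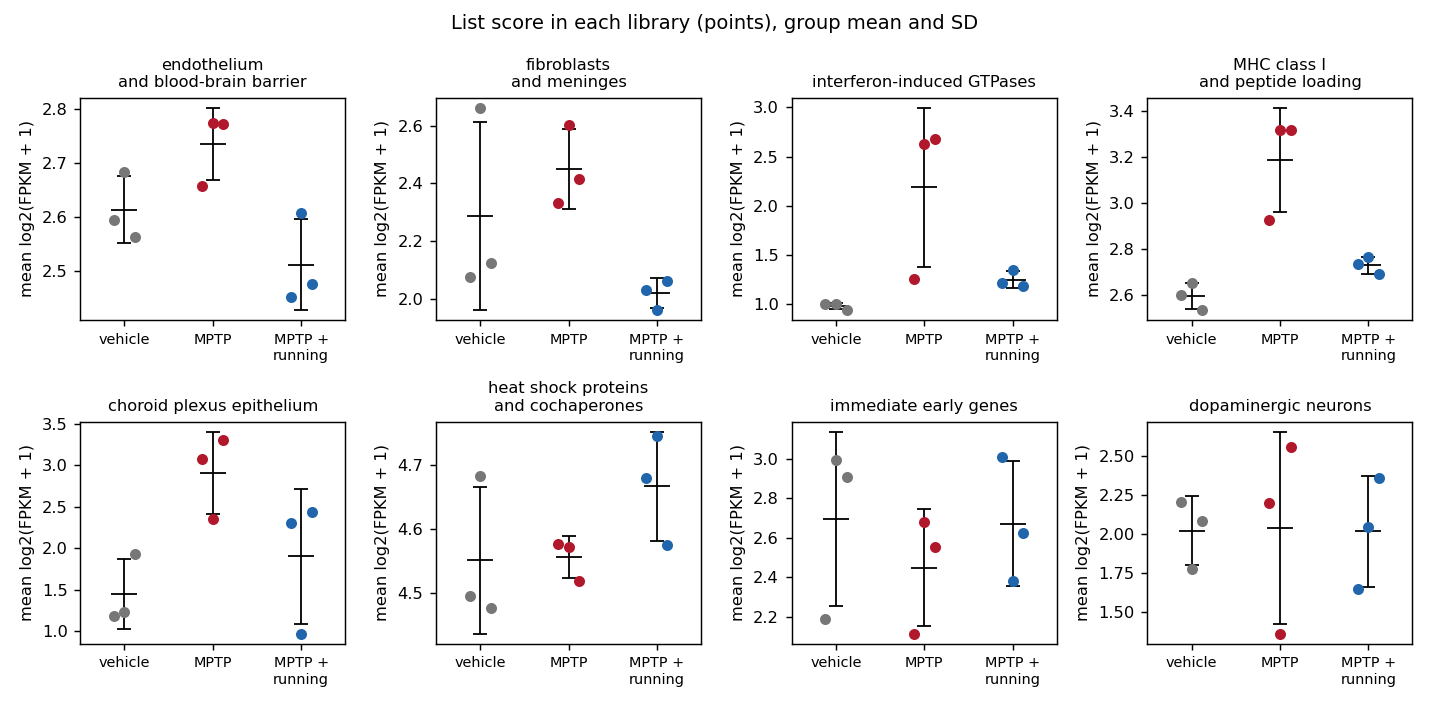
Mean log2(FPKM + 1) over the tested genes of 8 lists (vertical axes) in each vehicle, MPTP and running library (points), with the group mean and SD. MPTP replicate 1 has a GTPase score of 1.26, inside the running range of 1.18 to 1.35, and endothelial scores of running libraries (2.45 to 2.61) lie below those of MPTP libraries (2.66 to 2.77).

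In the IGF list, of ligands, receptors and binding proteins, 10 of 14 tested genes were lower and 4 higher, with a median of -0.05. At an unadjusted p under 0.05, 3 were lower (21.4%, against 2.89% of all genes), namely Igfbp2, Igf2 and Igfbp7, and 1, Insr, was higher. Beside those described above, Igfbp7, a binding protein of vessels, stood at 11.4, 16.1 and 10.1 FPKM in MPTP and at 9.77, 9.57 and 8.25 in running libraries. Igf1, the ligand of microglia and neurons that exercise research often follows, overlapped at 1.001, 1.12 and 1.11 against 1.11, 0.768 and 1.04 FPKM. In the list of neurotrophic and exercise-linked factors 20 of 30 were lower, with a median of -0.05. At an unadjusted p under 0.05, 4 of the 30 were lower (Vegfa, Igf2, Gfra1 and Ngfr), against 2.89% of all genes. Without MPTP replicate 1 or running replicate 1, 2 had such a p. Gfra1, the receptor of the dopaminergic survival factor GDNF, stood at 8.94, 5.99 and 10.8 against 4.30, 6.34 and 5.67 FPKM. Bdnf, brain-derived neurotrophic factor, stood at 2.19, 3.56 and 2.93 FPKM in MPTP and at 5.08, 2.67 and 4.73 in running libraries (log2 fold change 0.39, SE 0.22), short of an unadjusted p of 0.05, and running replicate 2 lay within the MPTP range. Its receptor Ntrk2 stood at 33.7, 26.8 and 38.5 against 30.6, 27.7 and 32.9 FPKM. Fndc5, the source of irisin, and Gpld1 also overlapped, with log2 fold changes of -0.09 and -0.06.

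Heat shock proteins and their helpers were slightly higher in running mice. Of 25 genes 21 had a log2 fold change above 0, 2 at an unadjusted p under 0.05 (1.11% of all genes), and for 7 the running libraries lay above all MPTP libraries (28%, against 2.66%). The median was 0.09, and no gene had such a p without MPTP replicate 1 or 3, and 1 without running replicate 1 or 2. Hsp90aa1, the stress-induced form of the chaperone HSP90, stood at 250, 261 and 246 FPKM in MPTP and at 286, 307 and 280 in running libraries, with vehicle at 261, 250 and 235. Dnaja1, a cochaperone of HSP70, stood at 27.4, 28.5 and 26.4 against 31.3, 32.5 and 30.6 FPKM, with vehicle at 29.3, 29.0 and 27.5. Running libraries were the highest of all 9 for these 2 genes. Hsph1, a nucleotide exchange factor of HSP70, stood at 30.7, 32.3 and 30.3 against 41.3, 34.5 and 35.5 FPKM, and Hspa1b, the classical inducible HSP70, at 2.27, 2.34 and 2.31 against 4.73, 2.43 and 3.30 FPKM. Their vehicle libraries reached the running level.
The heat shock element, the docking site of the factor HSF1, was searched as GAANNTTCNNGAA or TTCNNGAANNTTC on both strands. It was found in the RefSeq promoters of 4 of 20 genes of the list with an entry (Hsph1, Hspd1, Hspe1 and Chordc1), against 61 of 11003 tested genes (0.554%). Hspe1 and Hspd1, the mitochondrial chaperonin pair, share 1 promoter between them, shown here in the direction of Hspe1 with the match in capitals.
Hspe1 promoter, chr1:55088024-55088116 (+ strand): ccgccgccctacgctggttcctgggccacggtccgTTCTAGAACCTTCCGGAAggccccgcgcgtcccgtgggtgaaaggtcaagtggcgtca
Hspe1 stood at 31.9, 33.9 and 26.7 FPKM in MPTP and at 35.5, 34.7 and 33.5 in running libraries, against 34.6, 27.6 and 26.2 in vehicle libraries.

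Most genes driven by neuronal activity and by stress hormone had log2 fold changes above 0, on few single-gene differences. Of 35 immediate early genes 27 had a log2 fold change above 0, with a median of 0.23, but only Per1 had an unadjusted p under 0.05 (2.86%, against 1.11% of all genes) and no gene was free of overlap (against 2.66%). Without MPTP replicate 1 the median was 0.07 and no gene had such a p in this direction. Fos stood at 3.17, 5.23 and 7.20 FPKM in MPTP and at 11.5, 6.66 and 6.08 in running libraries, with vehicle at 4.87, 13.5 and 9.98. Arc, which tunes synapses after activity, stood at 9.90, 20.0 and 16.6 against 63.2, 21.2 and 15.6 FPKM, and 1 vehicle library reached 61.6. Single libraries were thus high in both running and vehicle mice. Of 21 glucocorticoid-induced genes 18 were higher, 3 at an unadjusted p under 0.05 and 3 without overlap (14.3% each), with a median of 0.17. Leaving out MPTP replicate 1 gave a median of 0.07 and none with such a p, and leaving out running replicate 3 gave 0.11 and 1. Ddit4, the stress-induced inhibitor of mTORC1, stood at 11.98, 15.4 and 18.0 against 21.8, 20.7 and 26.8 FPKM, with vehicle at 31.2, 19.4 and 18.9. Sgk1, a kinase that follows corticosterone, stood at 10.4, 14.7 and 16.1 against 16.2, 17.4 and 28.3 FPKM. Errfi1, a feedback inhibitor of the EGF receptor, stood at 7.57, 7.23 and 7.96 against 8.28, 9.31 and 9.92 FPKM. The vehicle libraries overlapped the running libraries for Ddit4, Sgk1 and Errfi1. Among 19 clock genes, which follow the hour of dissection, 11 were lower and 8 higher. Dbp, a clock output, stood at 19.7, 22.9 and 17.4 against 16.8, 17.1 and 14.02 FPKM, while Per1, both a clock and an activity gene, stood at 6.66, 8.47 and 7.30 against 11.7, 8.34 and 9.95. The part of the hour of dissection in these values was not tested.

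The title of the study names Slc7a11 and Alox12, genes of ferroptosis, a form of cell death by iron-dependent lipid peroxidation. Slc7a11, the cystine importer that feeds glutathione synthesis, lies on chromosome 3 from 49892526 to 50443614 (minus strand). It stood at 3.09, 3.40 and 3.72 FPKM in MPTP, at 3.53, 2.21 and 3.03 in running and at 2.80, 3.71 and 3.96 in vehicle libraries. The groups overlapped (log2 difference -0.18, exact two-sided permutation p = 0.4). Alox12, a lipoxygenase that oxidizes arachidonic acid, lies on chromosome 11 from 70241457 to 70255353 (minus strand) and was under the filter of 0.5 FPKM. It stood at 0.232, 0.164 and 0.144 FPKM in MPTP, at 0.0756, 0.0593 and 0.105 in running and at 0.172, 0.196 and 0.187 in vehicle libraries. All running libraries lay below the other 6 (log2 difference from MPTP -0.13 on FPKM + 1, exact two-sided permutation p = 0.1, the smallest the 20 splits allow). Values this low rest on few reads, and whole tissue does not tell which cells they come from.

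The rest of the ferroptosis machinery stood close to the background. Gpx4, the peroxidase that repairs lipid peroxides, stood at 136, 157 and 121 FPKM in MPTP and at 139, 153 and 120 in running libraries, and Gclc, the first enzyme of glutathione synthesis, at 15.6, 14.1 and 17.1 against 15.2, 15.9 and 15.5 FPKM. Acsl4, which loads membranes with oxidizable fatty acids, stood at 10.9, 12.5 and 15.6 against 14.9, 10.2 and 15.7 FPKM, and Tfrc, the receptor that takes up iron, at 20.0, 22.8 and 20.4 against 18.8, 23.2 and 19.9 FPKM. All 4 overlapped widely. Of 22 genes of cystine import, glutathione and Gpx4 14 were lower, with Gpx8 alone at an unadjusted p under 0.05. Gpx8, a peroxidase of the endoplasmic reticulum, stood at 7.53, 7.58 and 7.10 FPKM in MPTP and at 5.89, 2.93 and 5.20 in running libraries, with vehicle at 3.24, 4.24 and 4.47. Of 20 lipoxygenase and membrane lipid genes none reached such a p. In iron handling only Hfe, an MHC class I-like regulator of iron uptake, did so among 22, at 2.08, 2.16 and 2.51 against 1.37, 1.91 and 1.60 FPKM. Among 26 targets of Nrf2, the master antioxidant factor, and Nrf2 itself only Ephx1 did so, at 17.2, 16.5 and 16.1 against 12.3, 13.7 and 12.6 FPKM. The medians of these 4 lists ran from -0.04 to -0.01, beside -0.01 over all genes.

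Neuronal and metabolic lists had small medians. Of 25 genes of synaptic vesicles 18 were higher, none at an unadjusted p under 0.05, with a median of 0.06. Of 57 nuclear genes of the respiratory chain, the target of MPTP, 47 were higher but only Ndufa3 reached an unadjusted p under 0.05, with a median of 0.06. Under quantile normalization that median was 0.03. The list turned on single libraries: without MPTP replicate 2 the median was 0.15 with 12 genes at such a p, and without MPTP replicate 3 it was -0.01 with none. Of 24 genes of cholesterol synthesis 23 were higher, with a median of 0.09, and only Srebf2, the factor that drives the pathway, had an unadjusted p under 0.05, at 16.1, 21.6 and 15.3 against 21.7, 20.9 and 21.8 FPKM. Of 20 genes of familial Parkinson disease 12 were lower and 8 higher. Vps35, the retromer subunit mutated in a dominant form, had an unadjusted p under 0.05 in that list, at 18.0, 19.1 and 18.2 FPKM in MPTP, 22.3, 20.8 and 21.4 in running and 19.4, 18.0 and 17.4 in vehicle libraries. Its running libraries were the highest of all 9. Oligodendrocyte genes had 12 of 20 lower and GABAergic genes 13 of 17 lower, none at an unadjusted p under 0.05. In the lysosome and autophagy list 24 of 32 were lower, with a median of -0.08. Of these, 4 had such a p (12.5%, against 2.89% of all genes), and 8 lay below all MPTP libraries (25%, against 5.36%). The count of 4 became 1 without MPTP replicate 3 and 2 without running replicate 1. The 4 were Ctsd, Ctsz, Gusb, a lysosomal glucuronidase, and Grn, progranulin, at 9.86, 11.6 and 12.5 against 8.64, 8.61 and 9.41 FPKM.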

How the data were processed

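RNA-seq libraries of 3 vehicle, 3 MPTP and 3 running mice entered as the deposited table of FPKM, which the authors computed. Per the labels' protocols, mRNA was enriched on magnetic beads and sequenced on an Illumina NovaSeq6000. The submitters' processing notes name bcl2fastq, HTSeq, DESeq2 and GRCm38, with no versions. For the aligner, the tool behind the FPKM and the strandedness, nothing was given in these sources. FPKM are not counts, so no count test was run, and the depth of each library is known only relative to the others.

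Symbols and coordinates came from GENCODE M21 on GRCm38 (55154 of 55335 genes matched). Genes averaging 0.5 FPKM or more were tested as log2(FPKM + 1) in limma 3.58.1 (R 4.3.3) with a mean-variance trend, in 1 fit over all 9 libraries without covariates (6 residual and 2.68 prior degrees of freedom), two-sided, with Benjamini-Hochberg adjustment and a threshold of 0.05. On simulated data with 200 changed genes, in 10 runs, this fit found 78.9% of the genes changed by 1 log2 unit and 94.4% of those changed by 2, with 4.84% false calls, for running against MPTP over 15997 genes. The simulated noise was independent between genes, unlike the shared spread of marker genes among these libraries. Changes were placed only in genes with a mean log2(FPKM + 1) above 1. The rates therefore need not hold for these data or for low genes. Tables and figures were made in Python 3.11.15 (pandas 2.3.3, matplotlib 3.10.9). Named genes were, in each direction, the 12 with the smallest p and the 6 with the largest fold change (unadjusted p under 0.05) among protein-coding genes that had an official symbol, averaged 1 FPKM or more and did not overlap between the groups, plus up to 4 members of each list with the smallest p, its defining members, and the genes of the title. The 54 lists (1084 symbols, all matched) and the comparison were chosen with earlier results of these data known. Values of 2 single genes are not reported here. Promoters came from RefSeq (GRCm38.p6). Alternatives covered the pseudocount, the filter, scaling, the samples fitted, array weights, the replicate number as a block, and each library left out. A covariate for choroid plexus or endothelium, and leaving out MPTP and running replicate 2 together, were chosen after seeing the data.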

Additional observations from a re-analysis of the deposited data

How the results depend on the processing

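The count at an adjusted p under 0.05 (limma) was 0, beside 462 lower and 177 higher genes at an unadjusted p under 0.05. It was 3 without a filter, Igfbp2 among them, and 1, Igfbp2, at a mean of at least 5 FPKM, after rescaling every library to 1 sum and with array weights. It was 1, Gm47299, without MPTP and running replicate 2, and 0 to 25 with each library left out. The 25 came without MPTP replicate 1, the library with low GTPase levels, and included Gbp4, Gbp2, Tgtp1, Igtp, H2-K1 and Igfbp2. Counts at an unadjusted p were 960 lower and 422 higher without a filter, 110 and 69 at a mean of at least 5 FPKM, 788 and 483 with array weights, and 945 and 588 without MPTP and running replicate 2. They were 285 to 660 lower and 133 to 374 higher with each library left out, and 511 higher with the choroid plexus covariate. With the endothelial covariate, whose scores do not overlap between the groups and so nearly stand for them, 244 were lower. With it, 1 of 100 vessel and matrix genes and 2 of 74 interferon and antigen presentation genes had a p under 0.05. The score is the mean of the 36 endothelial genes, which are among those 100, so a lower count there was fixed in advance.

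The labels give the replicate numbers no meaning. The deviations of same-numbered MPTP and running libraries correlated at -0.339, -0.134 and 0.247, and those of differently numbered ones at -0.231 to 0.4. In all 3 groups, however, Slc6a3 was lowest in replicate 2 and highest in replicate 3, and the Hox sum was highest in replicate 2. Whether the numbers mark a shared batch or a pairing was not tested. With the replicate block the counts were 0 adjusted, 504 lower and 168 higher.

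Over 117 named genes, 2568 of 2640 log2 fold changes under the alternatives kept their sign and their side of the threshold, 18 passed the threshold with the same sign, and 54 had the opposite sign. The endothelial covariate gave opposite signs for Gbp7 (0.27), Tgtp2 (0.26), Irgm2 (0.13), Igtp (0.11), Serping1 (0.11), Ifit3 (0.095), Acta2 (0.33), Rgs5 (0.17), Vwf (0.035), Mfsd2a (0.25), Gpx4 (0.18), Tfrc (0.16), Gpld1 (0.15), Vps35l (0.043) and Acsl4 (-0.15). The choroid plexus covariate, chosen after seeing the data like the endothelial one, did so for Ttr (0.74), Wfdc2 (0.0092), Ntrk2 (0.12), Angpt1 (0.095), Igf1 (0.094), Tjp1 (0.075), Gclc (0.041), Trem2 (0.039) and Tmem119 (0.025), and for Slc6a3 (1.47), Th (0.69) and Slc7a11 (0.063). Array weights did so for Tmem119 (0.074), Trem2 (0.058) and Slc18a2 (-0.0077). Without MPTP and running replicate 2 the values were 0.14 for Tmem119, 0.11 for Trem2, 0.013 for Igf1, 0.0094 for Gpx4, -0.45 for Slc18a2 and -0.21 for Ddc. Vwf and Mfsd2a are part of the endothelial score, and Ttr and Wfdc2 of the choroid plexus score. Their values under those covariates therefore say nothing about the groups.

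With each library left out, signs also differed for Th (-0.78 to 0.40), Slc6a3 (-1.87 to 0.27), Slc18a2 (-0.27 to 0.86) and Ddc (-0.20 to 0.74). The same held for Acsl4 (-0.056 to 0.24), Angpt1 (-0.24 to 0.039), Gclc (-0.072 to 0.059), Gpld1 (-0.23 to 0.075), Gpx4 (-0.097 to 0.089), Mfsd2a (-0.30 to 0.086), Ntrk2 (-0.24 to 0.011), Tfrc (-0.12 to 0.030), Tjp1 (-0.12 to 0.080), Tmem119 (-0.13 to 0.048), Trem2 (-0.16 to 0.055) and Vps35l (-0.11 to 0.0044). The cause of these differences was not tested.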
